A study of Mus musculus with 8 samples.

Results

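The unfolded protein response and the integrated stress response were followed through 34 genes in MC38 tumors of mice given R848, a small-molecule agonist of the endosomal RNA sensor TLR7. The genes were chosen by role from textbook knowledge of both pathways, with earlier results of these data known. All 34 were listed in each of the 8 deposited tables, among 24787 genes listed in at least 1 tumor. MC38 is a colon carcinoma line of C57BL/6 origin, and the tumors were grown under the skin of female C57BL/6J mice 8 weeks old. Tumors were taken 24 h after saline in 3 mice, after free R848 in 3 and after the medium-release bottlebrush prodrug (medium R848-BPD) in 2. The prodrug carries R848 on a polymer through a cleavable linker. CD45+ and CD45- cells of each tumor were separated with beads, mixed with a large excess of CD45+ cells and loaded on Seq-Well arrays, in which beads in picowells capture polyA RNA. The share of MC38 cells in these libraries is therefore not their share in the tumor. With only 2 tumors given medium R848-BPD, each comparison with that group rested on 2 animals on 1 side, and its p-values measured the spread between tumors, pooled over the treatments.

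When misfolded proteins build up in the endoplasmic reticulum (ER), the sensors IRE1, PERK and ATF6 restore folding capacity: IRE1 splices the mRNA of Xbp1, ATF6 is cut to a transcription factor, and PERK phosphorylates eIF2alpha. Targets of XBP1 and ATF6 include the ER chaperones, disulfide isomerases, translocation components and the machinery that exports misfolded proteins for degradation. PERK shares its substrate with kinases that sense amino acid shortage, viral RNA and heme shortage, and the common arm, the integrated stress response, runs through ATF4 to genes of amino acid supply, feedback and cell death. Secretory cells such as activated lymphocytes depend on the first branch, and fast-growing tumor cells often use the second.

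Cells were assigned to classes by marker genes, none of which belonged to the 34. Of 10791 barcodes, 9827 cells were used and 8963 received a class: 5519 monocyte/macrophage-like, 1428 MC38-like, 875 NK-like, 448 T-like and 382 dendritic cell (DC)-like cells, and smaller classes of 124 osteoclast-like, 107 fibroblast-like and 73 neutrophil-like cells. In each of the 5 large classes the class's own markers had the highest sum of all marker lists in every tumor. The deposited tables held between 5867590 and 12422614 UMIs per tumor, and the median cell held between 3252 and 6995 UMIs. A set of 23 barcodes occurred in more than 1 tumor, and the 59 cells that carried them were left out. DC-like cells of saline replicate 2 numbered 8 and were not used, so that saline stood for 2 tumors in that class. UMIs were summed per tumor and class, and levels are given in CPM, UMI counts relative to the total of each sum. The class comparisons and the treatment comparisons were scaled separately, so the CPM of a tumor differed between them.

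The promoters of the genes were searched for the sequence elements by which the response is known. RefSeq windows of 300 bases (GRCm38.p6, 250 bases before and 50 after each start) were matched for 30 of the 34 genes, and Atf6, Derl1, Hyou1 and Manf had no window in the table used. The ER stress response element, CCAAT followed by 9 bases and CCACG, was found on either strand in 8 of the 30 windows (26.7%), against 37 of 27025 genes (0.137%). CCACG alone, the part of that element which ATF6 and XBP1 contact, was found in 24 of 30 windows (80.0%), against 35.5% of all genes. TGACGTGG, the XBP1-type element, was in 0 of 30 windows and in 0.714% of all genes. TGATGNAAN, a form of the C/EBP-ATF response element bound by ATF4, was found in 5 of 30 windows (16.7%), against 4.5% of all genes. No window held both the ER stress response element and this one, so most windows held neither. These are matches of letters and not measured binding, and the genes were chosen as known targets, so their share describes the choice.

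The matches are shown because they lay in genes of different roles. The ER stress response element was in 5 of 8 chaperone and lectin windows and in 0 of 7 windows of the integrated stress response, and the ATF4 element was in 4 of those 7 windows and in 0 of the 8. Each stretch of 30 bases is written 5′ to 3′ on the strand that reads the element, with the element's fixed letters in capitals for the ER stress response element and the whole match in capitals for the ATF4 element. On GRCm38.p6 the stretches of the first kind lie at chr2:34772020-34772049 (+) for Hspa5, chr10:86705632-86705661 (-) and chr10:86705528-86705557 (+) for Hsp90b1, chr8:84847070-84847099 (+) for Calr, chr11:50325794-50325823 (-) for Canx, chr14:118937822-118937851 (+) for Dnajc3, chr12:17266486-17266515 (+) for Pdia6, chr15:88819514-88819543 (-) for Creld2 and chr19:6046527-6046556 (+) for Syvn1, between 44 and 212 bases upstream of the start. Those of the second kind lie at chr8:94386305-94386334 (-) for Herpud1, chr2:152344029-152344058 (+) for Trib3, chr2:119351037-119351066 (-) for Chac1, chr6:7693213-7693242 (-) for Asns and chr7:126625563-126625592 (+) for Nupr1.
Hspa5: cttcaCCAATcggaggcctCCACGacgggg
Hsp90b1, first: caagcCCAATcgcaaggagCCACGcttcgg
Hsp90b1, second: actcaCCAATcgtgcctcaCCACGcactct
Calr: atgggCCAATgagggtcgaCCACGcgttgt
Canx: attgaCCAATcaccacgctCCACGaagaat
Dnajc3: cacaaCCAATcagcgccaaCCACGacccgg
Pdia6: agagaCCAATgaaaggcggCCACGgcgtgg
Creld2: gtggaCCAATtgaggctcgCCACGagaagc
Syvn1: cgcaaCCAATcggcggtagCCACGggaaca
Herpud1: gggtgcgggcTGATGCAACccgccgtggtt
Trib3: cccgcccggcTGATGTAAAcctgagctaat
Chac1: ctggcaggagTGATGCAACggcagggaagg
Asns: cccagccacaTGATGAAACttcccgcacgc
Nupr1: aagccctgtcTGATGCAATctggccctttc

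The question of the first comparison was where in the tumor the genes were transcribed. Together the 34 genes held the largest share of UMIs in NK-like cells, with a mean of 1.54% ± 0.154 (SD, n = 8 tumors), and in MC38-like cells, with 1.45% ± 0.0771 (n = 8), and the tumors of these classes overlapped. DC-like cells held 0.704% ± 0.13 (n = 7), monocyte/macrophage-like cells 1.02% ± 0.0896 (n = 8) and T-like cells 0.972% ± 0.0963 (n = 8). The highest DC-like tumor, at 0.886%, lay below the lowest NK-like tumor, at 1.28%. Among the small classes, fibroblast-like sums held 1.43% ± 0.0759 and neutrophil-like sums 0.682% ± 0.216.

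**Figure D1:**
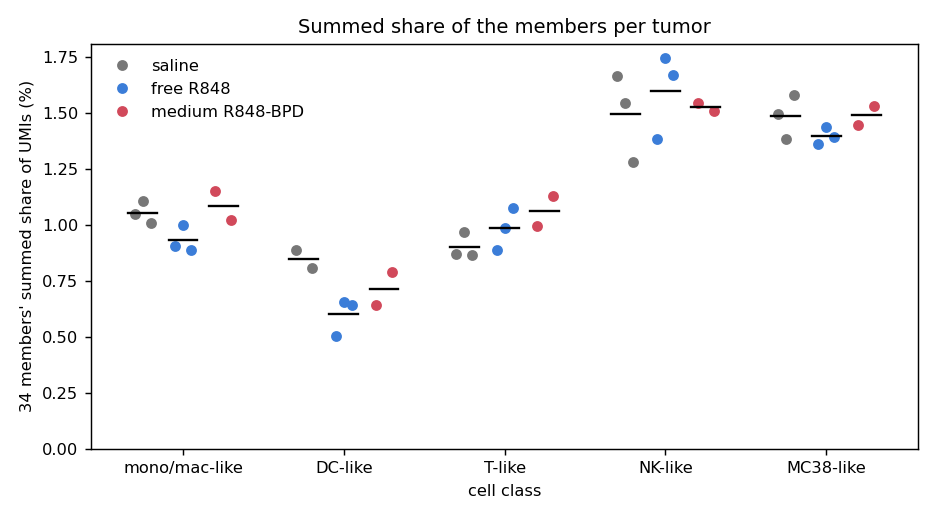
Share of all UMIs of a class that fell on the 34 genes, in percent on the y axis starting at 0, for the 5 large classes on the x axis. Each point is 1 tumor coloured by treatment and each line a group mean; NK-like and MC38-like tumors lie above 1.2% and DC-like tumors below 0.9%.

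Each class was tested against the mean of the other 4 with tumor as a block, since the classes of 1 tumor share an animal and a library (edgeR quasi-likelihood test with Benjamini-Hochberg adjustment over 9841 genes). Among the 34 genes, 27 differed in NK-like cells, 22 higher and 5 lower, where 60.4% of all genes tested differed, 32.2% higher and 28.2% lower. In MC38-like cells 29 differed, 13 higher and 16 lower, against 81.3% of all genes, 42.7% higher and 38.6% lower. In monocyte/macrophage-like cells 24 differed, 19 higher and 5 lower, against 66.7% of all genes, 38.6% higher and 28.1% lower. In DC-like cells 22 differed, 5 higher and 17 lower, against 57.6% of all genes, 26.8% higher and 30.8% lower. In T-like cells 17 differed, 2 higher and 15 lower, against 45.8%, 24.8% higher and 21% lower. The share was 79.4% in NK-like cells and close to that of all genes in the other classes, and the directions are described by role. The median log2 difference of the 34 genes was 0.62 in NK-like cells and -0.46 in DC-like cells, against 0.03 and -0.16 over all genes tested.

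**Figure D2:**
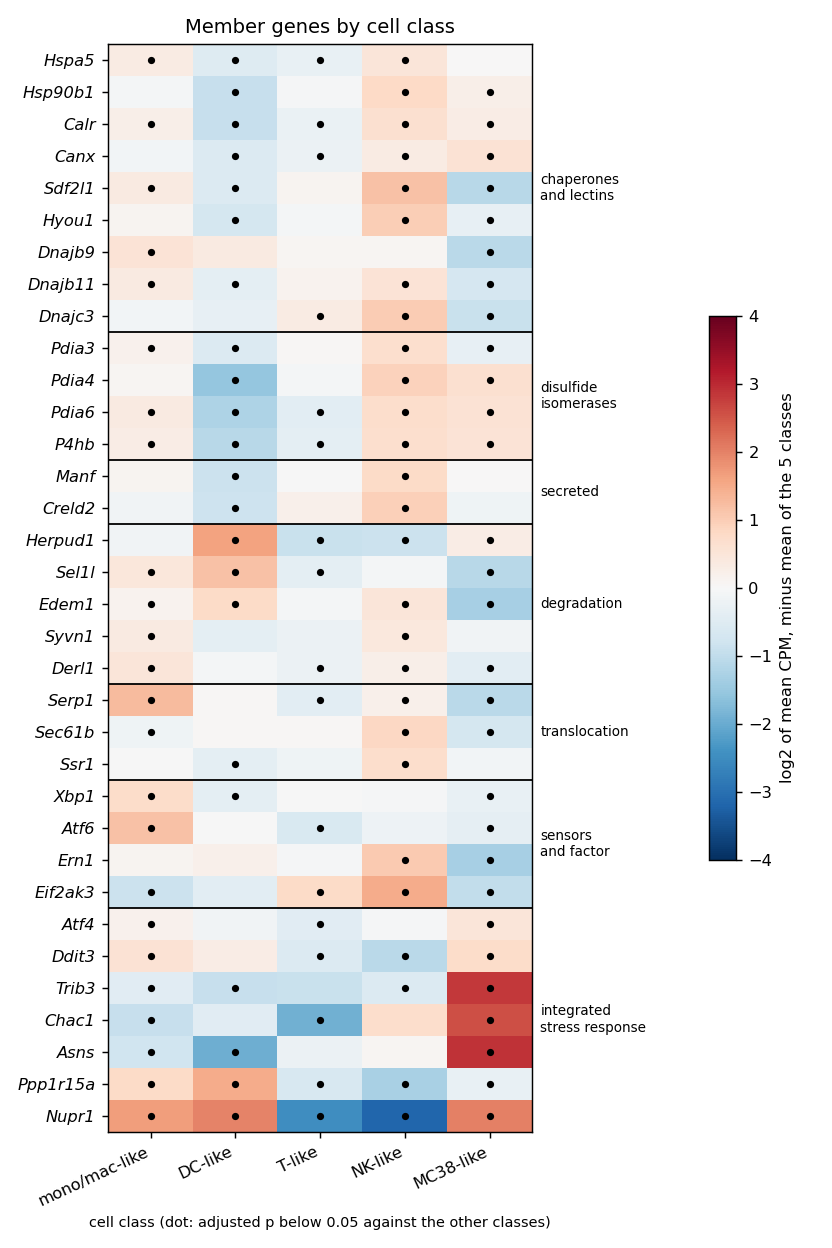
Mean level of each of the 34 genes (rows, grouped by role) in the 5 large classes (columns), as log2 of mean CPM minus the mean of the classes, from -4 in blue to 4 in red. Dots mark an adjusted p below 0.05 against the other classes; the 4 isomerase rows and most chaperone rows are highest in NK-like cells, the isomerase rows are lowest in DC-like cells, and the Trib3, Chac1 and Asns rows are highest in MC38-like cells.

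The chaperones and lectins fold proteins as they enter the ER, and 8 of the 9 were higher in NK-like cells than in the other classes, where 32.2% of all genes were higher. Hspa5, which encodes BiP, the chaperone that also holds the sensors inactive, ranged from 2561 to 3599 CPM in NK-like cells with a median of 3363, and its log2 difference was 0.62 ± 0.08 (SE, adjusted p = 8.5e-09). The same gene ranged from 985 to 2125 CPM in DC-like cells, with a median of 1542, and was lower there by 0.68 ± 0.09 on the log2 scale. The NK-like and DC-like tumors of Hspa5 did not overlap, while its monocyte/macrophage-like tumors, at 2301 to 3129.6 CPM, overlapped the NK-like ones. Sdf2l1, a partner of BiP, was higher in NK-like cells by 1.43 ± 0.13 and lower in MC38-like cells by 1.41 ± 0.14. Hyou1, the large ER chaperone and exchange factor of BiP, was at 270.5 ± 49.7 CPM in NK-like cells (SD, n = 8), and its lowest NK-like tumor, at 206 CPM, lay just above the highest monocyte/macrophage-like tumor, at 200.1 CPM. Dnajc3, a co-chaperone also known as p58IPK, was at 444 ± 67.9 CPM in NK-like cells and at 276 ± 29.7 in T-like cells, the next class, with no overlap. Dnajb9, a co-chaperone that acts on IRE1, was the 1 gene of the 9 that did not pass in NK-like cells (0.18 ± 0.13, adjusted p = 0.24).

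In DC-like cells 7 of the 9 chaperones and lectins and 4 of 4 disulfide isomerases were lower than in the other classes, against 30.8% of all genes. Hsp90b1, the ER form of HSP90, and Calr, the lectin calreticulin, were lower by 1.15 ± 0.12 and 1.16 ± 0.13 on the log2 scale. The isomerases Pdia4, Pdia6 and P4hb, which form and shuffle disulfide bonds, were lower by 1.93 ± 0.19, 1.55 ± 0.17 and 1.39 ± 0.13. Among the DC markers in DC-like cells, Ccr7, a gene of mature DCs, was at 2193 to 5097 CPM per tumor. Xcr1 and Clec9a were at 5.02 to 120 and 5.02 to 180 CPM. All DC-like values thus describe a class rich in Ccr7, and kinds of DC were not compared separately. All 4 isomerases were higher in NK-like cells, by 0.82 for Pdia3 to 1.15 for Pdia4, where 32.2% of all genes were higher. In MC38-like cells Pdia4, Pdia6 and P4hb were higher, by 0.69 to 0.78, while Pdia3, which serves glycoproteins held by calreticulin and calnexin, was lower by 0.43 ± 0.09. The lectin Canx, calnexin, was the 1 chaperone or lectin with its highest mean in MC38-like cells, at 1451 ± 118 CPM, and the tumors of MC38-like and NK-like cells overlapped.

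The secreted stress proteins Manf and Creld2 followed the chaperones. Manf was at 347 ± 58.4 CPM in NK-like cells, from 260.3 to 437 CPM, and its next class, the monocyte/macrophage-like cells, ended at 258 CPM. Creld2 was higher in NK-like cells by 1.17 ± 0.12 and lower in DC-like cells by 1.01 ± 0.2. Of the translocation genes, Sec61b, a subunit of the channel through which proteins enter the ER, was at 246 ± 36.1 CPM in NK-like cells and at 144 ± 29.2 CPM in T-like cells, and the tumors of these classes did not overlap. Ssr1, a subunit of the translocon-associated complex, was higher in NK-like cells by 0.87 ± 0.08.

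The degradation genes ran differently from the chaperones in DC-like cells. Herpud1, which anchors the ubiquitin ligase complex of ER-associated degradation, had a median of 319 CPM in DC-like cells, with a range of 119 to 446 CPM, and was higher there by 2.07 ± 0.15 (adjusted p = 1.7e-14). Sel1l, the adaptor of the ligase, and Edem1, which delivers misfolded glycoproteins, were higher in DC-like cells by 1.44 ± 0.1 and 0.95 ± 0.1. The ligase Syvn1 itself and the channel protein Derl1 did not pass there (-0.49 ± 0.22 and -0.07 ± 0.12). In MC38-like cells Edem1 and Sel1l were lower by 1.65 ± 0.09 and 1.36 ± 0.09. In NK-like cells Herpud1 was lower by 1.18 ± 0.16 while Edem1, Syvn1 and Derl1 were higher.

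Of the sensors and Xbp1, some were highest in monocyte/macrophage-like and some in NK-like cells. Atf6 ranged from 202 to 303 CPM in monocyte/macrophage-like cells and reached 165 CPM in the DC-like class, the next one, so that the tumors did not overlap (log2 difference 1.48 ± 0.11). Xbp1 was at 231 ± 17.2 CPM there, from 209.6 CPM upward, and the highest T-like tumor was at 205 CPM. The UMI counts do not tell spliced from unspliced Xbp1 mRNA. Ern1, which encodes IRE1, and Eif2ak3, which encodes PERK, were higher in NK-like cells, by 1.3 ± 0.15 and 1.74 ± 0.16, and Eif2ak3 was also higher in T-like cells, by 1.02 ± 0.21. All 4 genes of this role were lower in MC38-like cells, by 0.33 to 1.58, where 38.6% of all genes were lower.

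Of the 7 genes of the integrated stress response, 6 had their highest mean among the 5 large classes in the tumor cells, and Ppp1r15a had it in DC-like cells. In MC38-like cells the same 6 were higher and Ppp1r15a was lower, where 42.7% of all genes were higher and 38.6% lower, so that being called was itself common there. Together the 7 genes held 0.194% ± 0.0287 of UMIs in MC38-like cells (SD, n = 8) and 0.228% ± 0.0818 in the neutrophil-like sums of 3 tumors. Fibroblast-like sums of 5 tumors held 0.176% ± 0.0283, and the tumors of all 3 classes overlapped. Asns, which makes asparagine and is a textbook ATF4 target, ranged from 147 to 235 CPM in MC38-like cells with a median of 160.3 CPM. Among the 5 large classes no tumor of another class passed 50.2 CPM, and the log2 difference was 3.62 ± 0.14 (adjusted p = 6.9e-23). Trib3, a pseudokinase that feeds back on ATF4, ranged from 86.4 to 229 CPM in MC38-like cells. Its highest tumor of any other large class, an NK-like one, was at 59.4 CPM. Levels of single genes were not compared in the small classes. Chac1, which degrades glutathione, was at 19.3 ± 6.64 CPM and was higher by 3.11 ± 0.23, and its lowest MC38-like tumor, at 14.2 CPM, lay below the highest NK-like one, at 18.3 CPM. Atf4 and Ddit3, which encode ATF4 and CHOP, differed less, by 0.63 ± 0.08 and 1.04 ± 0.14, and overlapped with the monocyte/macrophage-like class. The promoters of Asns, Trib3, Chac1 and Nupr1 held the ATF4 element printed above, as did that of Herpud1, which had its highest mean in DC-like cells.

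In the other classes the genes of this role went in both directions or down. Ppp1r15a, which encodes GADD34 and leads the phosphatase that ends the response, was at 709 ± 206 CPM in DC-like cells and at 103 ± 58.3 CPM in NK-like cells, which did not overlap. Nupr1, a stress-induced chromatin protein, was at 170.0 ± 28.6 CPM in MC38-like cells, 135 ± 28.8 in monocyte/macrophage-like cells and 167 ± 180.4 in DC-like cells, against 4.76 ± 6.2 in NK-like and 7.59 ± 9.82 in T-like cells. Its 3 higher classes overlapped with each other and not with the 2 lower ones. In NK-like cells 0 of the 7 genes were higher and 4 were lower, where 32.2% of all genes were higher and 28.2% lower. Monocyte/macrophage-like cells had 4 higher, Nupr1, Ppp1r15a, Ddit3 and Atf4, and 3 lower, Trib3, Chac1 and Asns. Of all genes 38.6% were higher and 28.1% lower there, so that being called was common in this class too.

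Other genes of the pathways, from lists that share no gene with the 34, were counted the same way. Of 55 tested genes of ER translocation, folding, glycosylation and degradation, 43 were higher and 4 lower in NK-like cells, and 8 were higher and 37 lower in DC-like cells. Of all genes 32.2% were higher and 28.2% lower in the first class, and 26.8% and 30.8% in the second. The signal peptidase subunits Sec11c and Spcs3 and the glycosylation enzyme subunit Stt3b were higher in NK-like cells, by 1.73 ± 0.09, 1.28 ± 0.08 and 1.71 ± 0.1. Of 41 genes of the integrated stress response, amino acid synthesis and tRNA charging, 34 were higher and 2 lower in MC38-like cells, against 42.7% and 38.6% of all genes, with a median log2 difference of 1.21 against 0.06 over all genes. They included Phgdh and Psph of serine synthesis (3.21 ± 0.14 and 2.55 ± 0.1), the alanyl-tRNA synthetase gene Aars (1.8 ± 0.07) and the factor Atf5 (2.72 ± 0.12). The last list, of cytosolic heat shock genes and genes known to be induced while tissue is dissociated, had 11 of 16 higher and 4 lower in monocyte/macrophage-like cells, against 38.6% and 28.1% of all genes, with Fos at 2.96 ± 0.13 and Zfp36 at 2.95 ± 0.13. The part of dissociation in the levels of Ppp1r15a, Atf4 and Ddit3 in that class was not tested.

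**Figure D3:**
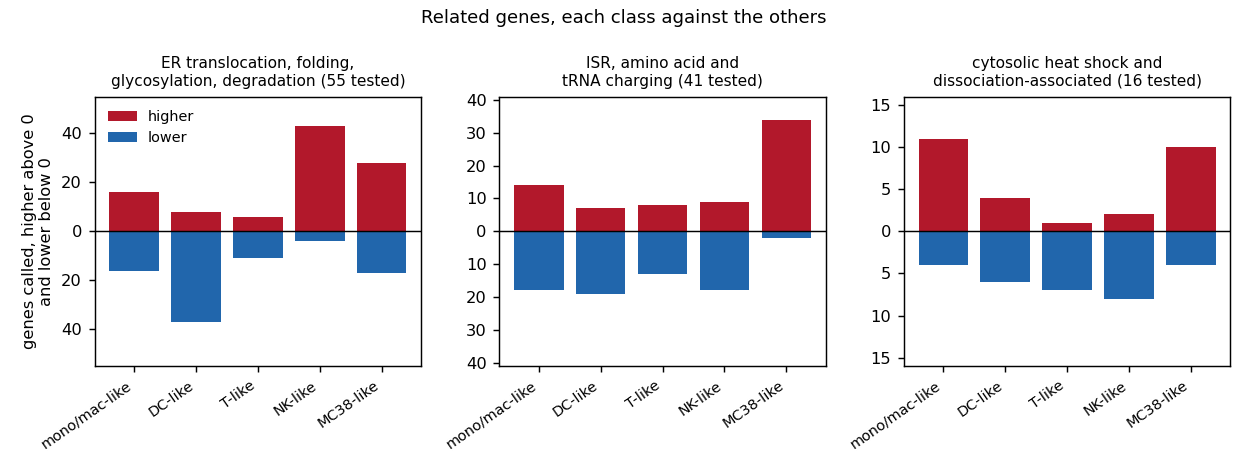
Number of related genes with an adjusted p below 0.05 in each class against the others, for 3 lists, with genes that were higher above 0 and genes that were lower below 0. The ER list is highest in NK-like cells (43 higher, 4 lower) and the list of amino acid and tRNA genes in MC38-like cells (34 higher, 2 lower).

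The second question was whether treatment changed the genes within a class. Treatments were compared on the sums per tumor, and the comparisons with free R848 and with saline share the medium R848-BPD tumors, as those with saline share the saline tumors. At most 2 of the 34 genes passed in a comparison within a class, except for 7 in DC-like cells after medium R848-BPD against saline, and most of the calls lay in comparisons with medium R848-BPD. The median share of mitochondrial UMIs per cell also moved with treatment, at 3.23% and 3.26% in the medium R848-BPD tumors, 3.63% to 4.25% after saline and 4.05% to 5.53% after free R848, and its part in these results was not tested.

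**Figure D4:**
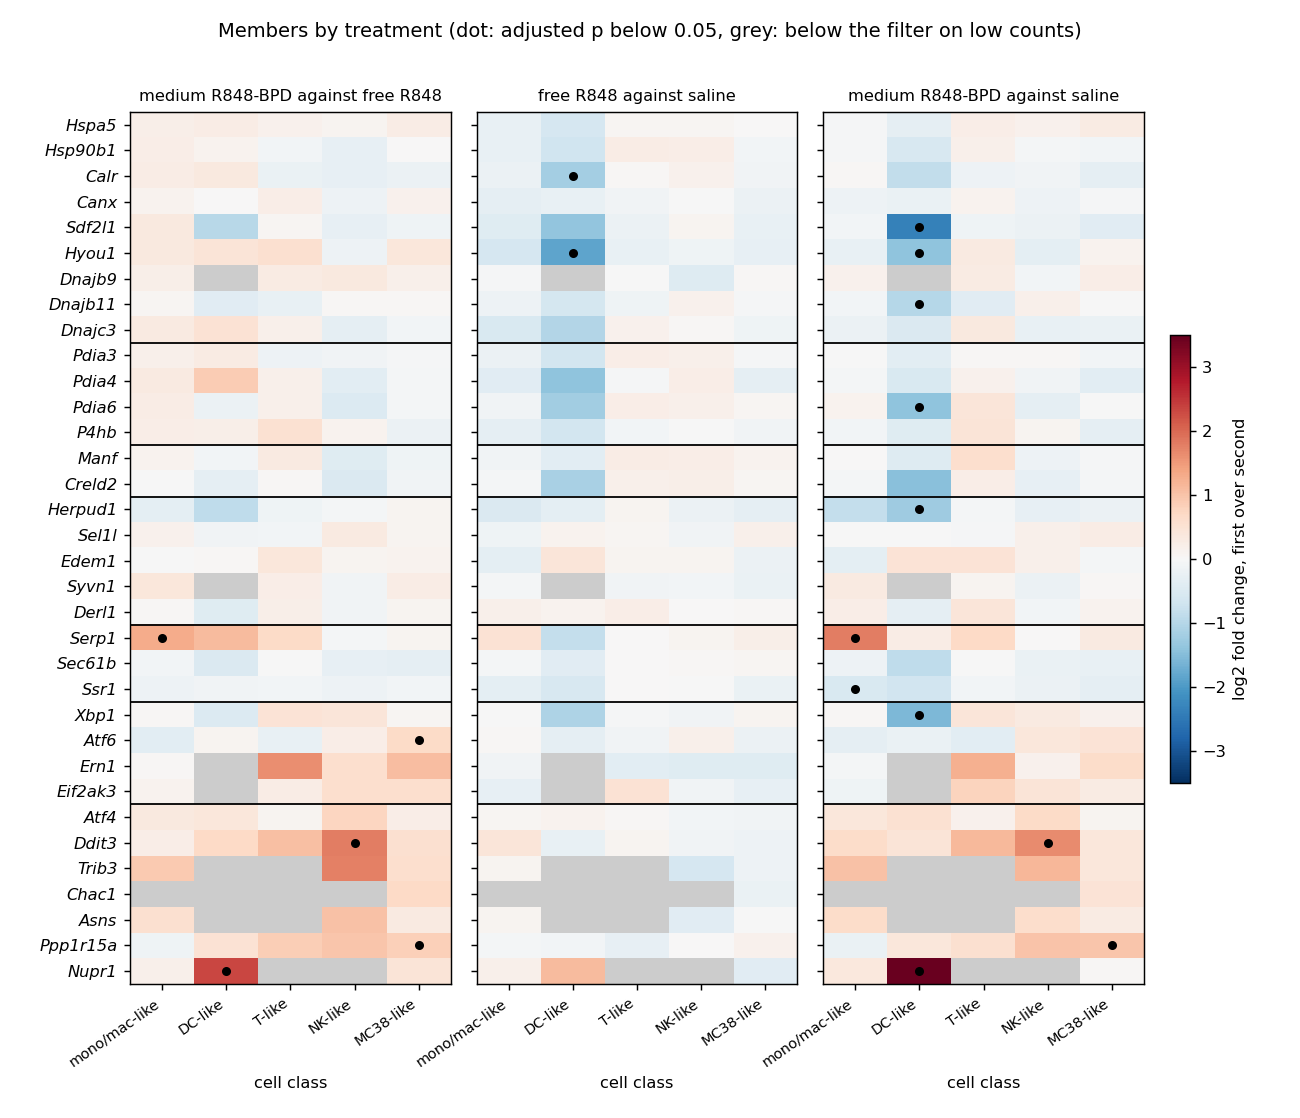
Log2 fold changes of the 34 genes (rows) in the 5 large classes (columns) for medium R848-BPD against free R848, free R848 against saline and medium R848-BPD against saline, from -3.5 in blue to 3.5 in red. Dots mark an adjusted p below 0.05 and grey cells genes below the filter on low counts; the largest called rise (3.45) and the largest called fall (-2.36) are those of Nupr1 and Sdf2l1 in DC-like cells after medium R848-BPD against saline.

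In monocyte/macrophage-like cells Serp1 rose after medium R848-BPD. Serp1 encodes a small ER protein that binds the translocation channel and protects new membrane proteins during stress (chromosome 3, 58519817 to 58525892 on the minus strand of GRCm38). Its levels were 294, 365 and 350.2 CPM after saline, 505, 466 and 451 CPM after free R848, and 1356 and 964 CPM after medium R848-BPD. All 3 groups were separate, with the free R848 tumors between the others. The log2 fold change was 1.29 ± 0.17 against free R848 (adjusted p = 0.0146) and 1.79 ± 0.17 against saline (adjusted p = 0.00157), and free R848 against saline gave 0.49 with an adjusted p of 0.305. It was the 1 gene of 33 tested that passed against free R848, where 1.53% of all genes passed. Against saline 2 of 33 passed, against 7.03% of all genes, and the other was Ssr1, which fell by 0.53 ± 0.13 (adjusted p = 0.0411), from 197, 178 and 173 CPM to 132 and 120.0 CPM. For free R848 against saline 0 of 33 passed by edgeR and 0.0187% of all genes, and DESeq2 also called 0. By edgeR 8 of the 33 had an unadjusted p below 0.05, against 1236 of all 10714 genes tested.

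Serp1 was also higher after medium R848-BPD among cells without UMIs of both Cd38 and Saa3. Cells with both numbered 379 and 302 in the medium R848-BPD tumors and at most 10 in any other tumor. They held 1138 and 820.5 CPM of Serp1 in those tumors and were too few elsewhere to compare. The remaining cells held 1677 and 1072 CPM there, 435.5 to 523.5 CPM after free R848 and 290.1 to 386.4 CPM after saline. Markers of osteoclasts, a list of 6 genes with at most 1 at 0, moved with the treatment, from 131 to 499.9 CPM in sum after saline and 541 to 608 after free R848 to 922 to 1243 after medium R848-BPD. The fibroblast list was at 23.1 to 26.9 CPM after medium R848-BPD and at most 17.4 in the other groups, and the DC list at 59.0 to 72.7 against at most 53.0. The T list was also highest after medium R848-BPD, and the class's own list and the B or plasma cell list were lowest. The part of these lists in the result was not tested. Eif2a overlaps Serp1 on the opposite strand, and it changed by 0.03 against free R848 and 0.10 against saline, with adjusted p of 0.964 and 0.744. The call against saline held without any 1 tumor, with adjusted p of at most 0.0117. The call against free R848 was lost without any 1 free R848 tumor (adjusted p from 0.0561 to 0.0909) or without medium R848-BPD replicate 1, where the value was 1.02 (adjusted p = 0.0523). Ssr1 lost its call without any of 6 tumors, with adjusted p up to 0.278 without medium R848-BPD replicate 2.

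In DC-like cells Nupr1 rose and several genes of the ER fell. Nupr1 (chromosome 7, 126623249 to 126630861 on the minus strand) was at 34.3 and 36.6 CPM after saline, 98.8, 52.1 and 78.0 CPM after free R848, and 336 and 449 CPM after medium R848-BPD. The groups were separate and rested on 14 and 5, 15, 9 and 15, and 154 and 79 UMIs. The log2 fold change was 2.35 ± 0.31 against free R848 (adjusted p = 0.00828), where it was the 1 gene of 27 tested that passed, against 0.0479% of all genes, or 2 of 4178. It was 3.45 ± 0.38 against saline (adjusted p = 0.00106), and that call held without any 1 tumor, with adjusted p up to 0.0425. Against free R848 the call was lost without free R848 replicate 2 (2.15, adjusted p = 0.0763) or replicate 3 (2.37, adjusted p = 0.0878). The 6 osteoclast markers summed to 141 to 341 CPM in DC-like cells after medium R848-BPD, 34.8 to 58.4 after free R848 and 86.1 to 113 after saline, with up to 5 of the 6 at 0 in a tumor, and their part in the result was not tested.

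The other 6 genes called after medium R848-BPD against saline fell, among 7 of 27 in all, where 11.7% of all genes passed and 5.55% fell. Sdf2l1 was at 120.0 and 73.3 CPM after saline, at 26.4, 46.3 and 41.6 CPM after free R848 and at 26.1 and 5.68 CPM after medium R848-BPD, the last from 1 UMI, and fell by 2.36 ± 0.56 (adjusted p = 0.0156). Xbp1 was at 157 and 176 CPM after saline, 65.9, 92.5 and 72.8 CPM after free R848 and 41.4 and 79.5 CPM after medium R848-BPD, and fell by 1.57 ± 0.37 (adjusted p = 0.0155). Hyou1 was at 174 and 125 CPM after saline, 52.7, 23.1 and 52.0 CPM after free R848 and 52.3 and 68.2 CPM after medium R848-BPD, and fell by 1.40 ± 0.38 (adjusted p = 0.0304). For all 3 genes both saline tumors lay above all 5 tumors given either form of R848. Herpud1, Pdia6 and Dnajb11, a BiP co-chaperone, fell by 1.25, 1.42 and 1.01, with adjusted p of 0.0209, 0.0458 and 0.0486. For free R848 against saline 2 of 27 passed, against 3.18% of all genes. These were Hyou1, which fell by 1.85 ± 0.39 (adjusted p = 0.0277), and Calr, which fell by 1.19 ± 0.26 (adjusted p = 0.0308), from 703 and 498 CPM to 224, 295 and 281 CPM. The median log2 fold change of the 27 genes was -0.58 for free R848 and -0.45 for medium R848-BPD, each against the same 2 saline tumors, where all genes had a median of 0.00. Of the 6 falls after medium R848-BPD only that of Herpud1 passed with DESeq2 (adjusted p = 0.0336, and 0.0572 to 0.28 for the others), and with the replicate number as a block 0 of the 6 passed (0.0625 to 0.187), nor did the 2 after free R848 (0.119 and 0.128). Nupr1 passed against saline under both, and against free R848 it did not pass with the block (adjusted p = 0.14). Without doublets Sdf2l1, Dnajb11 and Pdia6 did not pass (0.0526 to 0.0843).

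The saline DC-like cells also differed in their marker genes. Cd209a was at 107 and 26.7 CPM after saline and at 0 in all 5 other tumors, and Itgae at 344 and 293 CPM against 0 to 139. Clec9a was at 136 and 180 CPM after saline against 5.02 to 53.1, and Ccl17 at 349 and 280 CPM against 11.6 to 187. Siglech, a gene of plasmacytoid DCs, was at 95.2 and 33.3 CPM after saline against 0 to 23.9. Xcr1, Snx22, Flt3 and Zbtb46 overlapped between saline and the other tumors. Fscn1, which marks migratory mature DCs, was at 1031 and 1353 CPM after saline and at 2337 to 4390 CPM in the others. Other genes of mature DCs did not follow it: Ccr7 was at 2193 and 4585 CPM after saline and at 3630.0 to 5097 CPM in the others, and Ccl22 was at 1835 and 2872 CPM after saline, 1412 to 2778 after free R848 and 836 and 743 after medium R848-BPD. In sum the 8 neutrophil markers were at 947 to 1026 CPM after saline, 174 to 340 after free R848 and 268 to 366 after medium R848-BPD, with up to 6 of the 8 at 0 in a tumor. The 13 monocyte/macrophage markers summed to 926 to 1647 CPM after saline, 203 to 829 after free R848 and 616 to 953 after medium R848-BPD, with at most 2 at 0. The 7 B or plasma cell markers summed to 80.0 to 92.9, 11.6 to 43.1 and 35.1 to 42.3 CPM, with up to 6 at 0. The 5 endothelial markers went the other way, at 66.6 to 70.2, 98.5 to 153.9 and 108.7 to 175.6 CPM, with up to 4 at 0. The part of these lists in the result was not tested. Among DC-like cells with a Ccr7 UMI 24 genes could be tested, and Sdf2l1 and Hyou1 were not among them. For medium R848-BPD against saline Nupr1 (3.14) and Dnajb11 (-1.20) passed there, while Herpud1, Xbp1 and Pdia6, at -1.04 to -1.12, did not (adjusted p from 0.0705 to 0.193). Calr passed there for free R848 against saline (-1.17, adjusted p = 0.0349). Without saline replicate 1, which leaves 1 saline tumor assumed to vary like the other groups, all 8 falls were lost, with adjusted p from 0.156 to 0.451. Without saline replicate 3 all but that of Sdf2l1 were lost, with adjusted p from 0.0526 to 0.0981. Medium R848-BPD replicate 1 decided the calls of Dnajb11, Hyou1, Pdia6 and Xbp1 against saline (adjusted p from 0.179 to 0.278 without it). Without it Xbp1 was at -1.01 and Sdf2l1, which then rested on the tumor with 1 UMI, at -3.999 (adjusted p = 0.0211). Replicate 2 decided those of Dnajb11, Herpud1, Hyou1, Pdia6 and Sdf2l1 (0.0625 to 0.251). Without free R848 replicate 2 the falls of Calr and Hyou1 after free R848 and of Dnajb11 and Pdia6 after medium R848-BPD were lost (0.0657 to 0.0848).

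NK-like cells showed a rise of Ddit3, the gene of the pro-apoptotic factor CHOP (chromosome 10, 127290774 to 127296288 on the plus strand). It was at 13, 29.5 and 21.4 CPM after saline, at 21.5, 12.1 and 21.5 CPM after free R848, and at 48.9 and 101 CPM after medium R848-BPD. Both medium R848-BPD tumors lay above the other 6. The log2 fold change was 1.79 ± 0.38 against free R848 (adjusted p = 0.0373) and 1.65 ± 0.37 against saline (adjusted p = 0.03). It was the 1 gene of 32 in both comparisons, against 0.567% and 1% of all genes. Atf4, at 598 and 942 CPM after medium R848-BPD and at 404 to 519 CPM in the other tumors, did not pass (0.76 ± 0.18 against free R848, adjusted p = 0.0642). Ppp1r15a, at 117 and 256 CPM against 67.0 to 102, did not pass either (adjusted p = 0.194).

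Medium R848-BPD replicate 2 stood apart within the NK-like class, where it gave 39 cells and 209922 UMIs. Hspa1a, an inducible cytosolic heat shock gene, was at 802 CPM in it and at 0 to 23.6 CPM in the other 7 tumors, Jun at 729 CPM against 53.6 to 116, and Atf3 at 488 CPM against 14.7 to 46.8. The 8 neutrophil markers summed to 114 and 118 CPM after medium R848-BPD and to 2.34 to 31.9 CPM in the other tumors. Their part in the result was not tested. Without that tumor Ddit3 changed by 1.43 against free R848 (adjusted p = 0.243) and by 1.3 against saline (adjusted p = 0.184). The call against free R848 was also lost without any 1 free R848 tumor (0.0789 to 0.277), and that against saline without saline replicate 1 (0.21). With only the treatments compared in the fit the call of Ddit3 against saline was lost, and DESeq2 gave it no adjusted p there. Mars overlaps Ddit3 on the opposite strand and changed by -0.09 against free R848 (adjusted p = 0.954). For free R848 against saline 0 of 32 and 0% of all genes passed by edgeR, while DESeq2 also called 0 of the 32. By edgeR 0 of the 32 had an unadjusted p below 0.05, against 373 of all 8285 genes tested.

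In T-like cells 0 of 30 genes passed in any comparison, where 0.286%, 0.0179% and 0.0358% of all genes passed for medium R848-BPD against free R848, free R848 against saline and medium R848-BPD against saline. By edgeR 4, 0 and 5 of the 30 had an unadjusted p below 0.05, against 430, 266 and 334 of all 5591 genes. DESeq2 called 0 in all 3. The lowest unadjusted p belonged to Ern1, at 44.7, 23.3 and 27.3 CPM after saline, 23.6, 15.6 and 37.6 CPM after free R848 and 69.5 and 92.8 CPM after medium R848-BPD (1.62 ± 0.44 against free R848, adjusted p = 0.205). Both medium R848-BPD tumors were the highest, on 43 and 11 UMIs. Serp1 was likewise highest in them, at 338 and 405 CPM against 191 to 249 (0.67 ± 0.21, adjusted p = 0.296).

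In MC38-like cells Ppp1r15a and Atf6 rose after medium R848-BPD. Ppp1r15a (chromosome 7, 45522916 to 45526268 on the minus strand, overlapped by Tulp2 on the other strand) was at 214, 202 and 193 CPM after saline, 201, 239 and 236 CPM after free R848 and 343 and 452 CPM after medium R848-BPD. Both tumors of the last group lay above the other 6. The log2 fold change was 0.83 ± 0.13 against free R848 (adjusted p = 0.013) and 0.97 ± 0.13 against saline (adjusted p = 0.00146). Atf6 (chromosome 1, 170704674 to 170867771 on the minus strand) was at 109, 102 and 112 CPM after saline, 90.5, 97.7 and 91.6 CPM after free R848 and 121 and 172 CPM after medium R848-BPD. It rose by 0.67 ± 0.14 against free R848 (adjusted p = 0.0427) and not by the test against saline (0.48 ± 0.14, adjusted p = 0.101). These were 2 of 34 genes against free R848, where 0.814% of all genes passed, and 1 of 34 against saline, where 2.63% passed. For free R848 against saline 0 of 34 passed by edgeR, DESeq2 called 0, and 0.199% of all genes passed. By edgeR 5 of the 34 had an unadjusted p below 0.05, against 868 of all 10569 genes tested.

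The ATF4 targets that were highest in MC38-like cells did not pass between treatments. Trib3 was at 166 and 284 CPM after medium R848-BPD against 109 to 193 CPM in the other tumors (0.58 ± 0.22 against free R848, adjusted p = 0.216), and Asns changed by 0.30 ± 0.15 (adjusted p = 0.337). Ern1, at 26.0 and 31.4 CPM after medium R848-BPD, 11.2, 18.3 and 11.6 after free R848 and 20.6, 21.2 and 7.65 after saline, gave 1.08 ± 0.29 against free R848 (adjusted p = 0.093). Of the related genes, Atf3 rose, at 66.7 and 76.1 CPM after medium R848-BPD against 31.3 to 49.7 CPM in the others (0.98 ± 0.17 against free R848, adjusted p = 0.0183). Monocyte/macrophage markers, 13 genes with 0 at 0, summed to 122 to 195 CPM in MC38-like cells after medium R848-BPD, 236 to 287 after free R848 and 393 to 756 after saline, and their part in the result was not tested. The rise of Ppp1r15a against saline held without any 1 tumor, with adjusted p of at most 0.0422. Against free R848 it was lost without free R848 replicate 1 (0.75, adjusted p = 0.0743) or medium R848-BPD replicate 2 (0.61, adjusted p = 0.156). That of Atf6 was lost without any of 6 tumors, and without medium R848-BPD replicate 2 it was 0.37 (adjusted p = 0.479).

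**Figure D5:**
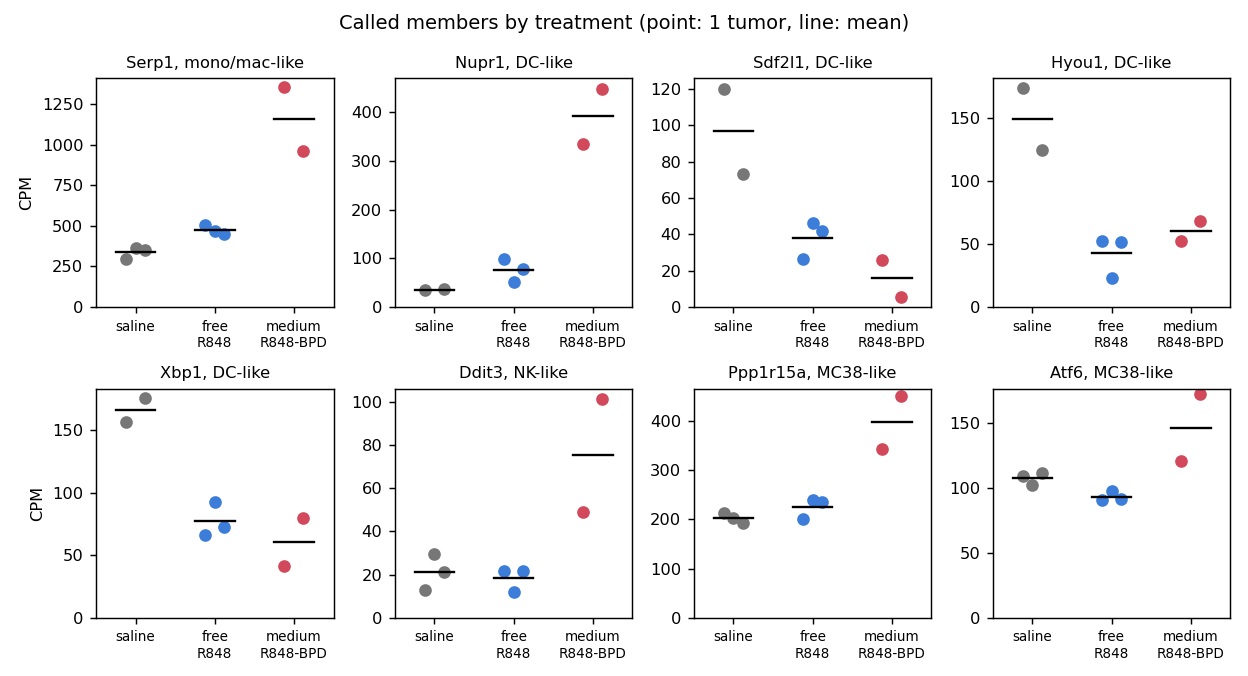
CPM of 8 called genes in 1 class each, on axes starting at 0, for the 3 saline, 3 free R848 and 2 medium R848-BPD tumors (2 saline tumors in DC-like cells). Each point is 1 tumor and each line a group mean; Serp1, Nupr1, Ddit3, Ppp1r15a and Atf6 are highest in both medium R848-BPD tumors, and Sdf2l1, Hyou1 and Xbp1 are highest in both saline tumors.

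Whether tumor cells and myeloid cells responded differently was tested directly, as the treatment effect in MC38-like cells minus that in monocyte/macrophage-like cells with tumor as a block. For medium R848-BPD against saline 2 of 34 genes passed, against 3.19% of all genes: Serp1 by -1.47 ± 0.21 (adjusted p = 0.0024) and Ppp1r15a by 1.11 ± 0.28 (adjusted p = 0.0441). In MC38-like cells Serp1 was at 187 and 206 CPM after medium R848-BPD and 143, 168 and 173 CPM after saline. For medium R848-BPD against free R848 2 of 34 passed, against 0.776% of all genes: Serp1 by -1.18 ± 0.21 (adjusted p = 0.0243) and Atf6 by 1.02 ± 0.22 (adjusted p = 0.0495). For free R848 against saline 0 of 34 passed by edgeR, DESeq2 called 0, and 0.00853% of all genes passed. By edgeR 2 of the 34 had an unadjusted p below 0.05, against 1092 of all 11726 genes tested. The difference of Serp1 against saline held without any 1 tumor, with adjusted p of at most 0.0159. That against free R848 was lost without any 1 free R848 tumor or medium R848-BPD replicate 1 (0.0709 to 0.124). Ppp1r15a lost its call without any 1 tumor other than saline replicate 2 (0.0604 to 0.29), and Atf6 without any 1 of 6 tumors (0.054 to 0.571). The difference of Atf6 was 0.65 without medium R848-BPD replicate 2 and 1.37 without replicate 1.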

How the data were processed

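The authors deposited 1 table of UMI counts per tumor (8 Seq-Well libraries, genes by barcodes), made from demultiplexed reads aligned to mm10. The submitters' processing notes name bcl2fastq, and the aligner is not given in the sources used here. Values are whole counts with no normalization.

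The limits of 400 to 10000 genes, below 50000 UMIs and up to 15% of UMIs from mitochondrial genes left 9886 of 10791 barcodes, and the 59 whose barcode sequence occurred in more than 1 tumor were left out. Scrublet in scanpy 1.11.5 marked 100 cells (1.02%) as doublets, and they were kept in the main results and left out in an alternative. A cell took the class whose markers gave a score of at least 0.3, a lead of at least 0.15 and at least 2 detected markers. A lead just past that limit was held by 516 cells, and 864 cells had no class. Classes are rebuilt here and may differ from the names of the study. Free RNA in the wells may add UMIs of a gene to cells that do not express it, and no correction was made.

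Counts were summed per tumor and class. Sums of 10 or more cells entered edgeR 4.0.16 (quasi-likelihood, TMM, filterByExpr, Benjamini-Hochberg over all genes tested, threshold 0.05) in R 4.3.3, with DESeq2 1.42.0 as an alternative. The SE is the log2 fold change divided by the square root of F. Treatment fits held all 3 treatments, and class and response fits had tumor as a block. All 34 genes are named by the rule, and of the 3 related lists at most the 5 genes with the smallest adjusted p per class and comparison. The 34 genes, the lists and the markers were chosen with earlier results of these data known. Promoter windows are from RefSeq (GRCm38.p6) and positions from GENCODE on GRCm38, the build also called mm10. Of the genes called between treatments, Serp1, Ddit3, Ppp1r15a and Pdia6 overlap genes on the other strand. Whether strand was used in counting is not given in the sources used here. Tulp2, which overlaps Ppp1r15a, and Atp6v1c2, which overlaps Pdia6, were not among the genes tested between treatments.

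In counts simulated for medium R848-BPD against free R848, the fit called 38.0% of genes changed 2-fold and 85.6% of genes changed 4-fold in monocyte/macrophage-like cells (10561 genes), 29.0% and 85.3% in DC-like cells (3844 genes), 45.9% and 90.9% in NK-like cells (8051 genes), 19.8% and 78.9% in T-like cells (5276 genes) and 69.0% and 96.9% in MC38-like cells (10429 genes). The labels number the replicates of each group and say nothing of shared days or litters.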

Additional observations from a re-analysis of the deposited data

Results flagged for a closer look

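Each of 4 values was flagged because the response to treatment differed between MC38-like and monocyte/macrophage-like cells by a test of the difference itself (edgeR quasi-likelihood test of the class-by-treatment term, adjusted over 11726 genes). For medium R848-BPD against saline the response of Serp1 was lower in MC38-like cells by a log2 difference of -1.473 (adjusted p = 0.0024), and that of Ppp1r15a was higher by 1.108 (adjusted p = 0.0441), a call lost in 7 of 8 fits without 1 tumor (adjusted p up to 0.29). For medium R848-BPD against free R848 the response of Serp1 was lower in MC38-like cells by -1.175 (adjusted p = 0.0243), a call lost in 4 of 8 such fits (up to 0.124), and that of Atf6 was higher by 1.016 (adjusted p = 0.0495), a call lost in 6 of 8, with 0.65 without medium R848-BPD replicate 2 (adjusted p = 0.571). The comparisons share the 2 medium R848-BPD tumors. No single tumor was tested against the rest of its group.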

How the results depend on the processing

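Of 205 recalculated counts of called genes, other than those without 1 tumor, 169 stayed within 1.5 times the reported count and 36 did not. No gene called between treatments or for the difference of the response turned its direction where an alternative gave it a value. The directions of single genes between classes, and those of genes not called, were not compared. Counts are given here for medium R848-BPD against free R848, free R848 against saline and medium R848-BPD against saline, and the cause of a change was not tested. With no filter on low counts the counts became 2, 2 and 5 in monocyte/macrophage-like cells, 2 in DC-like cells and 1 in T-like cells in the first comparison, 3 in the first and 3 in the last in NK-like cells, 6 and 2 in MC38-like cells, and 4 for the difference of the response in the last. With DESeq2 they became 1 and 2 in DC-like cells in the comparisons with saline and 0 in NK-like cells in the last, and Hyou1 in the first of these and Ddit3 in the NK-like cells had no adjusted p. Without doublets the count was 4 in DC-like cells in the last comparison and 1 for the difference of the response in the first, and with at most 10% mitochondrial UMIs the latter was 1 too. With classes from clusters and without the cluster of highest mitochondrial share the counts were 1 in monocyte/macrophage-like cells in the last comparison, 2, 0 and 4 in DC-like cells and 1 for the difference of the response in the last, which was 1 with all clusters as well. Settings chosen after seeing the data gave 1 in monocyte/macrophage-like cells without those with Cd38 and Saa3 UMIs, in the last comparison, and 1 and 2 in DC-like cells with a Ccr7 UMI, against saline. With only the treatments compared in the fit the counts were 1 in monocyte/macrophage-like cells in the last, 2 and 0 in NK-like cells in the first and last, and 1 in MC38-like cells in the first.

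Without 1 tumor at a time, the counts ranged from 0 to 1, 0 to 0 and 1 to 3 in monocyte/macrophage-like cells, 0 to 1, 0 to 2 and 1 to 9 in DC-like cells, 0 to 0 in all 3 in T-like cells, 0 to 3, 0 to 0 and 0 to 3 in NK-like cells, 0 to 6, 0 to 0 and 1 to 5 in MC38-like cells, and 0 to 3, 0 to 0 and 1 to 3 for the difference of the response. Against the other classes they ranged from 20 to 24, 19 to 24, 15 to 17, 25 to 28 and 27 to 30 in monocyte/macrophage-like, DC-like, T-like, NK-like and MC38-like cells.

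With the replicate number as a block, the counts were 0 and 1 in monocyte/macrophage-like cells in the first and last comparison, 0, 0 and 1 in DC-like cells, 2 in NK-like cells in the last and 1 in MC38-like cells in the first, and 12 of 18 named values lost their call. Same-numbered tumors deviated together with a correlation over 0.1 in 1 of 5 pairs in DC-like cells, 1 of 7 in monocyte/macrophage-like and MC38-like cells and 0 of 7 in NK-like and T-like cells (range -0.236 to 0.222), so the numbers were not taken to pair the tumors. A tumor gave as few as 30 DC-like and 24 T-like cells, and 4178 and 5591 genes could be tested between treatments in these classes, against 8285 to 10714 in the other 3.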

Other observations

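Calls between treatments among the related genes lay in comparisons with medium R848-BPD. In monocyte/macrophage-like cells after medium R848-BPD against saline, the amino acid response factor Atf5 rose by 1.20 ± 0.23 on the log2 scale (adjusted p = 0.0204) and Ppp1r15b, which encodes the constitutive partner of the eIF2alpha phosphatase, rose by 0.67 ± 0.14 (adjusted p = 0.0247). Psat1 of serine synthesis and Ero1lb, an oxidase of the isomerases, fell by 0.82 ± 0.17 and 0.61 ± 0.15 (adjusted p = 0.0268 and 0.0443). In DC-like cells in the same comparison the glycosylation enzyme subunits Rpn1, Rpn2 and Stt3a fell by 2.14, 1.49 and 1.3, with adjusted p of 0.00682, 0.0251 and 0.0378. There Sec24d, of the coat that carries proteins from the ER, rose by 3.19 ± 0.46 (adjusted p = 0.00208) and Atf5 by 2.15 ± 0.62 (adjusted p = 0.0359), and Fkbp2, an ER prolyl isomerase, and Nars, a tRNA synthetase, fell by 1.57 ± 0.48 and 1.1 ± 0.3 (adjusted p = 0.0464 and 0.0299). Of the heat shock and dissociation-associated genes there, Dusp1 rose by 1.87 ± 0.34 (adjusted p = 0.00442) and Btg2 fell by 1.84 ± 0.34 (adjusted p = 0.00488). In T-like cells Jun, of the same list, rose by 1.67 ± 0.31 against free R848 (adjusted p = 0.0386). In MC38-like cells Ddit4, which restrains growth signals, and Pmaip1, which encodes the death factor NOXA, fell by 1.25 ± 0.27 and 2.94 ± 0.68 against saline (adjusted p = 0.023 and 0.0356).

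Osteoclast-like cells, which could be summed in 2 tumors, held 1.05% and 1.13% of their UMIs in the 34 genes.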
